A study of Mus musculus with 6 samples.

Results

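Histone genes were measured in mouse OT-I T cells given disulfiram (DSF) or dimethyl sulfoxide (DMSO), its solvent, for 2 h. They were taken as the genes whose symbol places them in the clusters Hist1 to Hist4, together with 9 variant genes (H1f0, H1fx, H2afz, H2afv, H2afx, H2afy, H2afj, H3f3a and H3f3b), at a mean of at least 10 counts over the libraries. Of 55536 genes in the deposited table, 79 bore such a symbol, and 22 of these met the minimum, 14 of 70 clustered genes and 8 of 9 variant genes. The clustered genes with the means nearest the minimum were Hist1h1d, inside at 10.7 counts, and Hist1h3g and Hist1h3e, outside at 9.5 counts each. Of the variants, H1fx fell outside, at 4.2 counts.

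Both groups were primary T cells from lymph nodes with the OT-I T cell receptor transgene, which recognises an ovalbumin peptide presented by MHC class I, and their genotype was otherwise labelled wildtype. One group received DMSO and the other DSF, a thiuram disulfide that inhibits aldehyde dehydrogenase, each with 3 libraries labelled as biological replicates. The labels used here do not say which animals or cultures these came from, so p-values measure the spread between these libraries. The age of the mice, the DSF concentration and whether the cells had been stimulated are not stated there either. The series is titled as a study of T cell activation, and the comparison asks which histone transcripts differed after DSF.

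The histone proteins H2A, H2B, H3 and H4 form the core around which DNA is wrapped, and H1 binds the linker DNA between cores. Replication-dependent histones are encoded by clustered genes without introns, and their transcripts accumulate in S phase, when new chromatin is assembled. In metazoans these transcripts typically end in a stem-loop instead of a poly(A) tail, and the stem-loop-binding protein SLBP governs their processing, translation and decay. Variant, or replacement, histones are encoded outside the clusters, mostly by genes with polyadenylated transcripts, and are made throughout the cell cycle.

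The following stretches around the stem-loop are shown because 10 of the 14 clustered members and 0 of the 8 variant members held it. They were read from GENCODE M21 on GRCm38, 5′ to 3′ and on the strand of the transcript. Capitals mark the stem-loop, a pair of complementary arms around the loop TTTC, with up to 7 bases on either side. The form searched was chosen because more clustered genes held it than any other form of this shape. Its presence among clustered genes therefore follows from that choice and is no separate finding. In the annotated transcripts the stem-loop was followed by 3 bases in Hist1h2ap, 23 in Hist1h2ag, 35 in Hist2h2aa1 and 42 in Hist1h2ad, but by 840 in Hist1h1c and 1643 in Hist3h2a, where it does not mark the annotated end.
Hist1h2ap: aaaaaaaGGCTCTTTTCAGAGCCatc
Hist1h2ag: caacaaaGGCTCTTTTCAGAGCCacctaac
Hist1h2ad: aaacaaaGGCTCTTTTCAGAGCCatccact
Hist2h2aa1: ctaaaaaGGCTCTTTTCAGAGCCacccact
Hist3h2a: caccaaaGGCTCTTTTCAGAGCCacccaca
Hist1h1c: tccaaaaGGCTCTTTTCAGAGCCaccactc

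The stem-loop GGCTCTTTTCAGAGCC, searched on the transcript's own strand, stood in 31 of 141767 annotated transcripts (0.022%). It was present in 26 of the 70 clustered genes, in 0 of the 9 variant genes and in 3 genes outside the histone rows. Of the 14 clustered members, 10 held it and Hist1h2bc, Hist1h3c, Hist1h4i and Hist2h2be did not in the annotated transcripts searched. In Hist1h2ap the motif lay at chr13:21833029-21833044 on the minus strand, and in Hist1h1c at chr13:23739512-23739527 on the plus strand. Other arm sequences around the same loop were found in 7 clustered genes (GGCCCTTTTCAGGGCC) and in 2 (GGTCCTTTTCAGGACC). These other forms were searched in clustered genes only, and other loops were not searched. The 0 of 9 variant genes therefore refers to the exact form above and does not show that variant transcripts lack a stem-loop.

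The polyadenylation signal AATAAA, searched in the last 50 bases on the same strand, stood near the end of 4 of the 14 clustered members and 4 of the 8 variant members, against 40.5% of 58797 protein-coding transcripts. The clustered genes with it were Hist1h1c, Hist1h2ae, Hist2h2be and Hist3h2a, so Hist1h1c, Hist1h2ae and Hist3h2a were annotated with a stem-loop upstream of a polyadenylation signal. The variant genes were H1f0, H2afj, H2afv and H3f3a. These ends, the last 30 bases with AATAAA in capitals, are shown to set clustered against variant transcripts that both carry the signal.
Hist1h1c: ttctAATAAAaagcgtttagttttcattca
Hist2h2be: ttattattAATAAAgttaccgattagtttc
H3f3a: tgaaaaatAATAAAagtaccaatagaagaa
H2afj: aggacaAATAAAgaatatattacaaatctg

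Of the clustered members, 13 of 14 had a single exon, with Hist1h2bc at 2. Of the variant members, 3 of 8 had a single exon (H1f0, H2afj and H2afx), and H2afy had the most, at 9.

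The variant histone transcripts were abundant and the clustered ones scarce. Per length, in TPM (transcript abundance corrected for length, the authors' values averaged over all libraries), H2afz stood at 609, H3f3a at 532, H2afy at 449 and H3f3b at 392, followed by H2afj at 104, H2afv at 84.1, H2afx at 63.1 and H1f0 at 24.2. Among the clustered genes Hist1h4i was highest at 15.2 TPM, followed by Hist1h2ap at 11.1 TPM, and Hist1h1d was lowest at 0.09 TPM. Every variant member therefore had a higher mean TPM than every clustered member. Libraries were made from total RNA with an mRNA kit, and whether it selected or primed on poly(A) tails is not stated, so few clustered transcripts and poor capture of transcripts without a tail cannot be told apart.

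**Figure D1:**
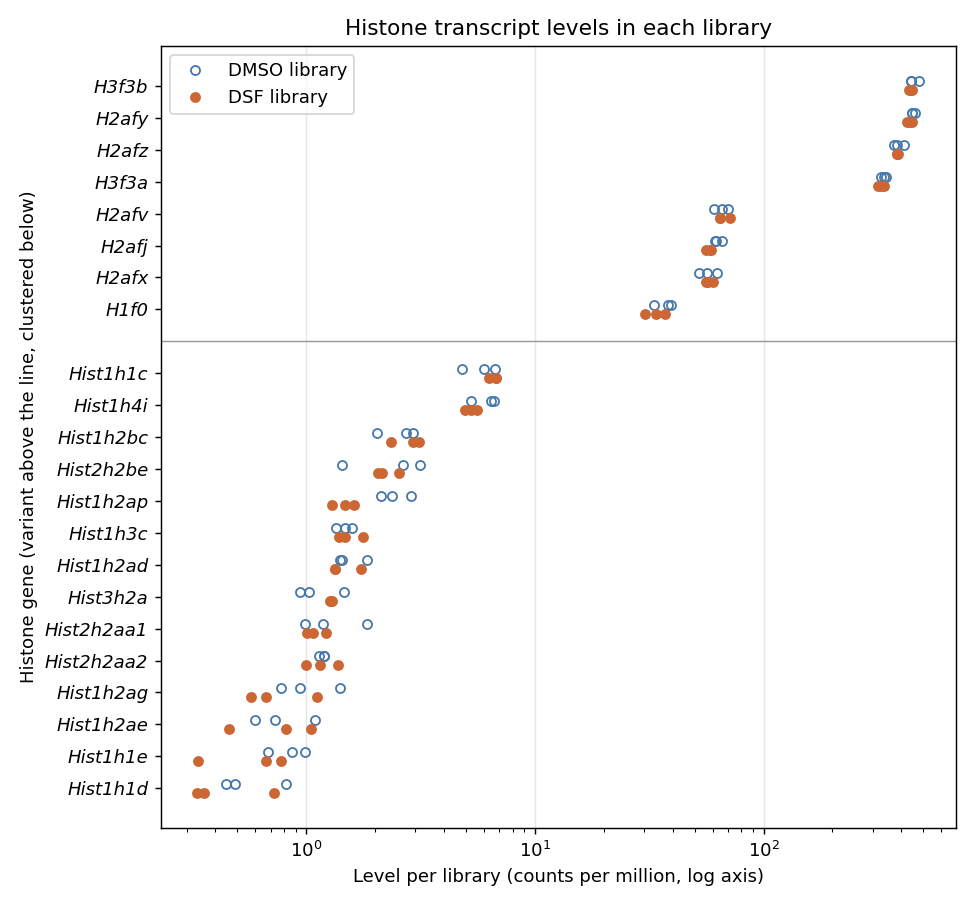
Level of each of the 22 histone genes in each library, in CPM (counts relative to library size) on a log axis, with the 3 DMSO libraries as open points and the 3 DSF libraries as filled points. Variant genes lie between 30.2 and 480.3 and clustered genes at or below 6.77, and the DSF points of Hist1h2ap all lie to the left of its DMSO points.

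With DSF, 1 histone transcript passed the test. Of 21 members tested by edgeR's quasi-likelihood test, 1 was lower and 0 were higher at a Benjamini-Hochberg adjusted p under 0.05, that is 4.76%, against 22.9% of all 14318 genes tested (11.3% lower and 11.6% higher). The transcript that fell was Hist1h2ap, a clustered H2A gene, to 0.597 of its DMSO level. At an unadjusted p under 0.05 the count was 2 of 21, against 32.2% of all genes, and the libraries of the groups did not overlap in 3 of 21, against 35.4% of all genes. The remaining member, Hist1h1d, was removed by the filter on low counts before the test.

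The variants were measured precisely. None of the 8 passed edgeR's test in either direction, with 1 at an unadjusted p under 0.05, and 0 passed by DESeq2. Their median log2 fold change was -0.04 and their median absolute log2 fold change 0.04, against -0.00 and 0.12 over all genes tested. The 95% intervals of all 8 ran from 0.825-fold to 1.10-fold at their outermost. These intervals leave no room for a rise or a fall of a variant transcript as large as the estimate for Hist1h2ap, 0.597. The interval of Hist1h2ap itself reached up to 0.827, however, and so met that of H1f0, which reached down to 0.825. A p above the threshold also does not show that the level was the same.

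H3f3a and H3f3b encode the same protein, the replacement histone H3.3, which is deposited outside S phase at active genes and elsewhere. H3f3b stood at 480.3, 443 and 441 CPM (counts relative to library size, scaled by the TMM method of edgeR) in the DMSO libraries and at 445, 431 and 442 CPM in the DSF libraries. The groups overlapped, and the fold was 0.966 with a 95% interval of 0.920 to 1.01 (edgeR's adjusted p = 0.354). H3f3a stood at 342, 335 and 327 CPM in DMSO and at 335, 318 and 327 CPM in DSF, again with overlap. Its fold was 0.976 with an interval of 0.931 to 1.02 (edgeR's adjusted p = 0.527). The summed level of this pair was 789.6 ± 28.7 CPM in DMSO and 766 ± 15.7 CPM in DSF (mean ± SD, n = 3), and 923 ± 6.0 and 925 ± 15.4 in TPM.

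H2afz and H2afv encode the forms of H2A.Z, a variant found at promoters and enhancers. H2afz stood at 412, 382 and 372 CPM in DMSO and at 385, 383 and 387 CPM in DSF. All 3 DSF libraries lay within the range of the DMSO libraries, and the fold was 0.990 with an interval of 0.942 to 1.04 (edgeR's adjusted p = 0.832). H2afv stood at 61.0, 69.8 and 65.6 CPM in DMSO and at 64.7, 64.4 and 71.1 CPM in DSF. The highest library was a DSF library and the lowest a DMSO library, and the groups overlapped (edgeR's adjusted p = 0.791).

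H2afy encodes macroH2A1, an H2A with a large additional domain that is enriched in silent chromatin. Its level was 445, 460.3 and 448 CPM in DMSO and 426, 439 and 445 CPM in DSF. The CPM of the groups did not overlap, by a narrow margin between DMSO library 1 and DSF library 3, while its TPM overlapped. The fold was 0.967 with an interval of 0.924 to 1.01 (edgeR's adjusted p = 0.321).

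H2afx encodes H2A.X, the histone phosphorylated around DNA breaks. It stood at 56.4, 62.7 and 52.2 CPM in DMSO and at 56.1, 60.3 and 56.9 CPM in DSF, so every DSF library lay within the DMSO range (edgeR's adjusted p = 0.885). H1f0 encodes the linker histone H1.0, a variant associated with cells that have stopped dividing. It stood at 39.3, 38.3 and 33.2 CPM in DMSO and at 30.2, 37.1 and 33.9 CPM in DSF, with overlap. Its fold was 0.915 with an interval of 0.825 to 1.02, the widest interval of the variants on the log scale (edgeR's adjusted p = 0.238).

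H2afj, which encodes the variant H2A.J, had the lowest p of the 8 variants. It stood at 61.9, 65.5 and 61.1 CPM in DMSO and at 58.9, 58.1 and 55.9 CPM in DSF. Each DSF library lay below each DMSO library in CPM, but the groups overlapped in TPM. The fold was 0.917 with an interval of 0.854 to 0.984, at an unadjusted p of 0.018 and an adjusted p of 0.0715 by edgeR, so it did not pass. H2afj (ENSMUSG00000060032) lies at chr6:136808244-136810074 of GRCm38 on the plus strand where Gm44364 overlaps it in the other orientation. No source used here says if reads were counted by strand.

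**Figure D2:**
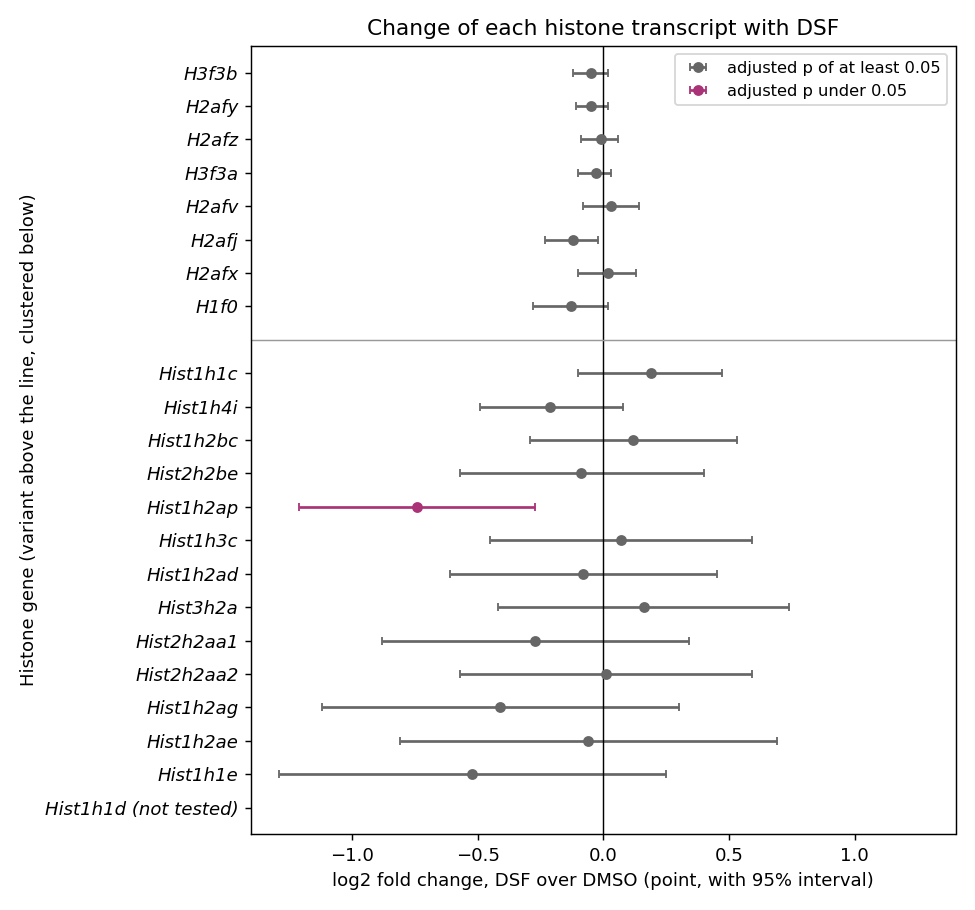
Log2 fold change of DSF over DMSO for each histone gene, with its 95% interval, variants above the line and clustered genes below it. Points for an adjusted p under 0.05 are coloured, which holds for Hist1h2ap at -0.74 only, and the intervals of the variants are narrower than those of the clustered genes.

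The clustered genes were measured with far fewer counts. Of the 13 tested, 1 was lower and 0 higher by edgeR (7.69%, against 22.9% of all genes), and 1 of 13 had groups that did not overlap (against 35.4%). Their log2 fold changes ran from -0.74 to 0.19 with a median of -0.08, 5 above 0 and 8 below. Their mean count had a median of 29.9, against 3939 for the variants, and the median distance from the estimate to a bound of its 95% interval was 0.53 on the log2 scale, against 0.09 for the variants and 0.16 for all genes. That distance belongs to an unadjusted interval, so a call at an adjusted p under 0.05 generally needed a larger change. Small differences in single clustered genes could therefore have been missed at this depth.

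Hist1h2ap (ENSMUSG00000094777) encodes a replication-dependent H2A and has 1 exon on chr13:21833026-21833507 of GRCm38, minus strand. It had 53, 52 and 43 counts in the DMSO libraries and 29, 29 and 27 in the DSF libraries. In CPM this was 2.87, 2.37 and 2.13 against 1.61, 1.48 and 1.30, so every DSF library was below every DMSO library. The mean fell from 2.45 ± 0.379 to 1.46 ± 0.156 CPM (SD, n = 3), and TPM fell from 13.9 ± 2.28 to 8.33 ± 0.856, also without overlap. The log2 fold change was -0.74 ± 0.23 (SE), a fold of 0.597 with a 95% interval of 0.431 to 0.827 (edgeR's adjusted p = 0.017).

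The call for Hist1h2ap was not firm. By edgeR it ended without DMSO library 1 (adjusted p = 0.0884) and without DSF library 3 (adjusted p = 0.0783), and it also ended under DESeq2 (adjusted p = 0.0764), while the adjusted p ranged from 0.0131 to 0.0884 over all alternatives and the direction was kept in each. In the authors' deposited table its adjusted p was 0.119, the lowest of the members, and 0 members passed there.

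Its identity was uncertain as well. Of the stretches of 50 bases in its transcript, 93.1% also occurred in Hist1h2ao, a gene listed at 0 counts in every library, and 72.3% in Hist1h2ag. How the authors' counting divided reads between such copies is not stated in the labels or file headers, and its part in the fall was not tested. Hist1h2ap also overlaps Gm44466 on the opposite strand.

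Copies of this kind were common among the clustered genes. At least 25% of the 50-base stretches were shared with another gene in 11 of 14 clustered members and 1 of 8 variant members, H2afz at 33.2%. The highest shares were in the H2A genes, at 100% for Hist2h2aa2, 89.4% for Hist2h2aa1, 78.9% for Hist1h2ag and 67.1% for Hist1h2ad, and the lowest was 0% for Hist2h2be. Values of these H2A genes are therefore uncertain one by one.

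None of the other 6 H2A genes passed. Hist1h2ag had 26, 17 and 19 counts in DMSO and 20, 13 and 12 in DSF, with overlap, and its fold was 0.754 with an interval of 0.461 to 1.23 (edgeR's adjusted p = 0.468). Hist2h2aa1 had 34, 26 and 20 counts in DMSO and 22, 21 and 21 in DSF, the one high value being DMSO library 1 (edgeR's adjusted p = 0.59). Its near-copy Hist2h2aa2 had 22, 25 and 24 counts in DMSO and 18, 27 and 24 in DSF (edgeR's adjusted p = 0.985). These neighbours in the Hist2 cluster thus had log2 fold changes of -0.27 ± 0.30 and 0.01 ± 0.28 (SE), whose errors cover the gap between them. Hist1h2ad had 34, 31 and 29 counts in DMSO and 24, 26 and 36 in DSF, and its CPM overlapped, from 1.41 to 1.84 in DMSO and from 1.33 to 1.73 in DSF (edgeR's adjusted p = 0.872). Hist1h2ae and Hist3h2a, the lone member from the Hist3 cluster, also overlapped between groups, with log2 fold changes of -0.06 ± 0.37 and 0.16 ± 0.29 (SE).

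The genes for the partner of H2A and for the other core histones did not pass either. Hist1h2bc, an H2B gene, had 54, 60 and 41 counts in DMSO and 56, 57 and 49 in DSF, nearly the same range (edgeR's adjusted p = 0.741). Hist2h2be, also an H2B gene and one annotated with a polyadenylation signal, had 58, 58 and 29 counts in DMSO and 37, 42 and 53 in DSF. Its lowest library was DMSO library 3, and its DSF libraries lay inside the DMSO range (edgeR's adjusted p = 0.849). Hist1h3c, the lone H3 member, had 25, 35 and 30 counts in DMSO and 25, 29 and 37 in DSF (edgeR's adjusted p = 0.89). Hist1h4i, the lone H4 member, had 122, 116 and 130 counts in DMSO and 101, 97 and 110 in DSF. Its counts did not overlap before scaling, but its CPM did, at 6.61, 5.28 and 6.43 against 5.60, 4.96 and 5.28, and the fold was 0.867 with an interval of 0.711 to 1.06 (edgeR's adjusted p = 0.339).

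Among the linker histone genes Hist1h1c, which encodes H1.2, had the most counts of the clustered members. It had 123, 132 and 97 counts in DMSO and 122, 123 and 141 in DSF, or 5.82 ± 0.945 and 6.61 ± 0.272 CPM (SD, n = 3). Its log2 fold change of 0.19 ± 0.14 (SE) was the highest of the members, and the groups overlapped (edgeR's adjusted p = 0.393). Hist1h1e had 16, 15 and 20 counts in DMSO and 14, 13 and 7 in DSF, and its fold of 0.696 had an interval of 0.408 to 1.19 (edgeR's adjusted p = 0.374). Hist1h1d, which was not tested, had 9, 18 and 9 counts in DMSO and 6, 7 and 15 in DSF. Exons of Hist1h1e overlap Hist1h2be and Gm11398 on the same strand, those of Hist3h2a overlap Trim17 and those of Hist2h2aa1 overlap Gm20634, so these counts are uncertain to that extent.

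The tested clustered genes were also split by whether that exact stem-loop form stood anywhere in the annotated transcript. Of 9 with it, 1 was lower (11.1%, against 11.3% of all genes), and of 4 without it, 0. Which genes held the other forms was not recorded, so some of these 4 could hold one. The median log2 fold changes were -0.08 with the form and -0.01 without it. The difference between these medians was not tested and is small beside the intervals of single genes.

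Summed over genes, the clustered histones were a small part of the histone signal in either group. The 14 clustered members together stood at 32.8, 28.8 and 26.3 CPM in DMSO and at 28.6, 26.5 and 27.7 CPM in DSF, or 29.3 ± 3.28 and 27.6 ± 1.04 CPM (SD, n = 3), with overlap. The 8 variants together stood at 1899, 1856 and 1801 CPM in DMSO and at 1801, 1790.4 and 1819 CPM in DSF, or 1852 ± 49 and 1803 ± 14.3 CPM, also with overlap. DMSO library 1 was the highest in both sums. The ratio of DSF to DMSO was 0.941 for the clustered and 0.974 for the variant genes, and it was 0.973 for the clustered genes without Hist1h2ap.

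The clustered share of the summed CPM was 1.70, 1.53 and 1.44% in the DMSO libraries and 1.56, 1.46 and 1.5% in the DSF libraries. The means were 1.56 ± 0.132% and 1.51 ± 0.0524% (SD, n = 3), so the shares in CPM differed by less than the spread between the DMSO libraries. From the raw counts, the 95% Wilson interval of a single library was 1.57 to 1.84% for DMSO library 1, the highest, and 1.32 to 1.56% for DMSO library 3, the lowest, which covers counting error only. In CPM the direction rested on DMSO library 1, since the difference of DSF minus DMSO was -0.0488 percentage points with all libraries and 0.0229 without it. In TPM the share was 3.42, 2.88 and 2.89% in DMSO and 2.89, 2.64 and 2.65% in DSF, or 3.06 ± 0.312% and 2.73 ± 0.143% (SD, n = 3). The groups overlapped there as well, but the difference of -0.333 percentage points was larger than either SD. DMSO library 1 was again the highest, at 3.42%, while DMSO libraries 2 and 3 lay no higher than DSF library 1. The difference in TPM without DMSO library 1 was not computed.

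The sum of all clustered genes depended on the unit. Over all 70, including the 56 below the count minimum, the sums were 44.3, 39.7 and 36.9 CPM in DMSO and 39.5, 36.1 and 35.9 CPM in DSF, with overlap. In TPM they were 128, 119 and 110.4 in DMSO and 109, 100.4 and 101 in DSF, without overlap and at a ratio of 0.869. TPM weights short transcripts more than CPM does. In TPM the 14 members alone also did not overlap (71.7 ± 7.95 and 63.0 ± 3.32, SD, n = 3), but they did without Hist1h2ap, at a ratio of 0.945. The 56 genes below the minimum, which do not include Hist1h2ap, did not overlap in TPM either. They stood at 47.1 ± 4.01 in DMSO and 40.3 ± 1.73 in DSF (SD, n = 3), a ratio of 0.855, but overlapped in CPM. The variants overlapped in TPM, at 2269.6 ± 14.5 and 2245 ± 25.3. In bulk samples, fewer cells in S phase and less RNA per cell cannot be told apart.

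By histone type over all 70 clustered genes, every sum overlapped between groups in CPM. In TPM the ratio of DSF to DMSO was 0.826 for the H2A genes, 0.80 for the H2B genes and 0.874 for the H4 genes, each without overlap, while the H1 genes (8.17 ± 0.913 and 8.67 ± 0.444 TPM) and the H3 genes (14.8 ± 1.3 and 14.5 ± 2.62 TPM) overlapped. The H2A sum overlapped once Hist1h2ap was left out, at 34.6 ± 4.28 and 31.8 ± 1.86 TPM. Few of the summed genes met the count minimum, 7 of 20 for H2A, 2 of 19 for H2B and 1 of 13 for H4. How often genes did not overlap in TPM over the whole series was not computed. These sums are descriptions with no test.

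**Figure D3:**
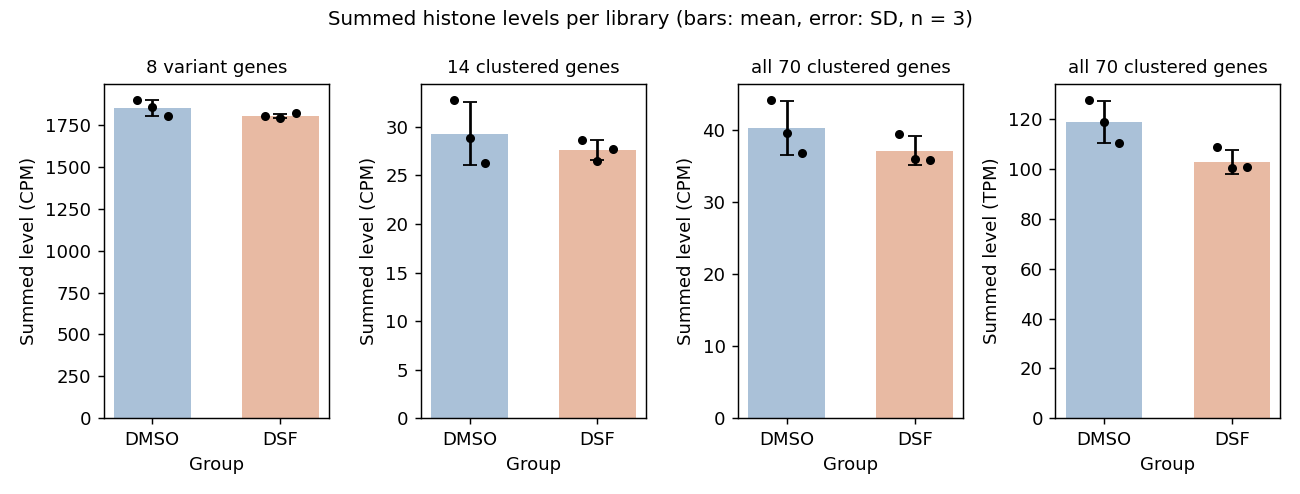
Summed level per library (points) with the group mean (bar) and SD (error bar, n = 3) for the 8 variant genes, the 14 clustered genes and all 70 clustered genes in CPM, and for all 70 in TPM. The groups overlap in the 3 CPM panels and do not in the TPM panel, where DSF libraries reach 109 and DMSO libraries start at 110.4.

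Genes that process, carry and accompany histones were examined from lists. Of 27 tested genes for histone pre-mRNA processing and decay, 6 were lower and 0 higher (22.2%, against 22.9% of all genes), with a median log2 fold change of -0.06. Slbp, which encodes the stem-loop-binding protein, stood at 177 ± 7.61 CPM in DMSO and 167 ± 7.2 CPM in DSF (SD, n = 3) and did not pass (edgeR's adjusted p = 0.137). Npat, the coactivator of clustered histone transcription, stood at 64.0 ± 3.84 and 59.8 ± 0.774 CPM and did not pass either (edgeR's adjusted p = 0.2).

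The 3 members of that list with the smallest p also serve other transcripts. Cstf2, a cleavage-stimulation factor subunit, fell to 0.875 (edgeR's adjusted p = 0.00167), and Ncbp1, the large subunit of the nuclear cap-binding complex, fell to 0.896 (edgeR's adjusted p = 0.00666). Srrt, which encodes the cap-binding partner ARS2, fell to 0.911 (edgeR's adjusted p = 0.0117). By edgeR the call of Ncbp1 ended without DSF library 2 (adjusted p = 0.0639), and that of Srrt without DMSO library 2 or 3 or DSF library 1 (adjusted p = 0.0517, 0.126 and 0.0844). Exons of Cstf2 overlap Nox1 and those of Ncbp1 overlap Tstd2 and Xpa on the opposite strand.

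Histone chaperones went in both directions, with 6 of 36 higher and 6 lower (33.3%, against 22.9% of all genes) and a median log2 fold change of -0.01. Their counts were high (median 2929, against 424 for all genes tested) and their intervals narrow, so smaller changes could pass. The median absolute log2 fold change was 0.09, against 0.12 for all genes. Ubn1, a subunit of the HIRA complex that deposits H3.3, rose from 183 ± 6.03 to 205 ± 5.8 CPM (SD, n = 3; edgeR's adjusted p = 0.00139). Set, which encodes a chaperone and inhibitor of histone acetylation, fell from 368 ± 11.2 to 313 ± 9.71 CPM (edgeR's adjusted p = 3.79e-06). Supt16, a subunit of the FACT complex that handles H2A and H2B, fell from 207 ± 6.17 to 187 ± 4.01 CPM (edgeR's adjusted p = 0.00259), and its exons overlap Rpgrip1 on the opposite strand. Grouped by role after the values were seen, 3 of 6 genes for H3.3 deposition were higher (Ubn1, Ubn2 and Cabin1) and 1 lower (Daxx). For H2A.Z exchange 2 of 6 were higher (Srcap and Znhit1). For assembly of H3 and H4 in S phase 0 of 8 passed in either direction (Asf1a, Asf1b, Chaf1a, Chaf1b, Rbbp4, Rbbp7, Nasp and Hat1). The roles left out other genes of the list that passed, such as Tlk2, higher (edgeR's adjusted p = 0.00473), and Mcm2, lower (edgeR's adjusted p = 0.0282). These counts therefore depend on which genes were placed in each role. Over all genes 11.6% were higher and 11.3% lower, and no difference between these roles was tested. At the same time the H3.3 and H2A.Z genes themselves had folds between 0.966 and 1.02.

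Of the other histone and histone-like genes outside the rule, 2 of 5 tested were lower and 0 higher (40.0%, against 22.9% of all genes). Counts were high here too (median 6629, against 424), and the median absolute log2 fold change was 0.07, against 0.12 for all genes. Cenpa, the centromeric H3 variant, fell from 351 ± 5.49 to 316 ± 4.63 CPM (SD, n = 3), a fold of 0.899 with an interval of 0.859 to 0.941 (edgeR's adjusted p = 5.02e-04). Its groups did not overlap. H2afy2, which encodes macroH2A2, had under 1 CPM in each group, at 0.261 ± 0.0925 and 0.365 ± 0.117 CPM, and was not tested.

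Genes of S phase and proliferation, the phase in which clustered histones are made, included 4 of 28 higher and 7 lower (39.3%, against 22.9% of all genes), with a median log2 fold change of -0.05. This list also had high counts (median 1741, against 424), and its median absolute log2 fold change was 0.10, against 0.12 for all genes. Ccne1, which encodes the G1/S cyclin E1, fell from 41.1 ± 0.258 to 28.6 ± 2.8 CPM (SD, n = 3; edgeR's adjusted p = 1.19e-07). Uhrf1, needed to copy DNA methylation at replication, rose 1.13-fold (edgeR's adjusted p = 3.6e-04), and Top2a, which encodes topoisomerase II alpha, fell to 0.912 (edgeR's adjusted p = 0.00213). By limma on log2(TPM + 1) the calls of Cstf2, Ncbp1, Srrt, Set, Ubn1, Supt16 and Top2a ended, at adjusted p from 0.0681 to 0.482, and the log2 fold change of Set went from -0.23 to -0.081.

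**Figure D4:**
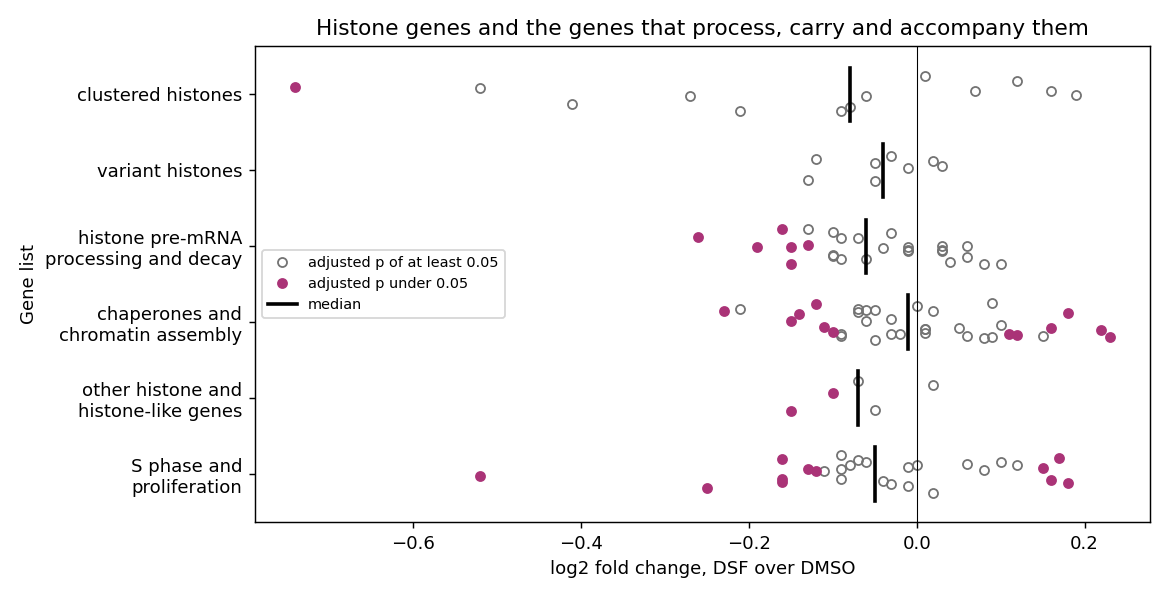
Log2 fold change of DSF over DMSO for each tested gene of 6 lists, with the list median as a bar and filled points for an adjusted p under 0.05. Medians lie between -0.08 and -0.01, the chaperone list has 6 filled points on each side of 0, and 1 filled point lies among the histones, at -0.74.

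The libraries held 18082264 to 21893720 counts, and the floor of 3 counts corresponded to 0.136 to 0.166 CPM. T cell markers were present in every library, with Cd3e at 229 ± 10.9 and 218 ± 1.78 CPM and Cd8a at 411 ± 5.05 and 350 ± 5.64 CPM (SD, n = 3), against Cd4 at 1.22 ± 0.03 and 1.63 ± 0.411 CPM. The summed level of 11 T cell markers was 3518 to 3571 CPM in DMSO and 3282 to 3374 CPM in DSF, without overlap. The summed level of 10 B cell markers, mostly Ighm, was 271 to 275 CPM in DMSO and 250.1 to 256 CPM in DSF. The sum of 12 myeloid and dendritic cell markers was 49.0 to 49.4 and 40.0 to 43.2 CPM. Most of that difference lay in Xcr1, at 10.7 ± 1.59 CPM in DMSO and 5.38 ± 1.1 CPM in DSF, while Mpeg1 also fell, to 0.842, and the other 6 tested did not pass. The sum of 5 natural killer cell markers, mostly Eomes, was 45.5 to 47.2 and 36.9 to 39.3 CPM. That fall lay in Eomes, at 43.0 ± 0.891 and 34.6 ± 1.87 CPM. Klrb1c did not pass (edgeR's adjusted p = 0.771), and Ncr1, Klra8 and Klra4 had means of 1.7, 0.5 and 0.8 counts. The sum of 6 CD4 and regulatory T cell markers, mostly Ctla4, was 371 to 407 and 382 to 392 CPM, with overlap. That of 8 stromal, endothelial and erythroid markers, mostly Pecam1, was 33.1 to 37.3 and 31.8 to 37.3 CPM, also with overlap. None of the markers in these lists was at 0 in all libraries, but some, such as Cdh5, Klra8, Hbb-bs and S100a8, were below 3 counts in most or all. The part of the markers in the fall of Hist1h2ap was not tested. The reading of the libraries as DMSO and DSF rests on the deposited group codes, and every direction given here rests on it.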

How the data were processed

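Libraries of 3 DMSO and 3 DSF samples were made from total RNA (1 µg each) with a kit for mRNA (SMARTER), per the labels' protocols. The submitters' processing notes name the build GRCm38 (mm10). The aligner, the counting program and its use of strand were not given in the sources at hand. For each gene and library, the deposited table gives expected counts (31.6 to 32.9% of values above 0 are not whole), TPM, the authors' log2 fold changes and the authors' p-values, per the file headers.

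No label names the table's columns. The deposited mean TPM headed DO equalled the mean of the A columns in 55536 of 55536 genes within 0.0001, against 28853 for the B columns, so A was read as DMSO (DO) and B as DSF (DF), and the column numbers as replicate numbers, which no label states. Of these columns 0 were left unused.

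Expected counts were rounded, filtered with filterByExpr (14318 genes kept, 41218 removed), scaled by TMM (0.9952 to 1.0053) and fitted by group with edgeR 4.0.16 (robust quasi-likelihood, R 4.3.3). Calls used a Benjamini-Hochberg adjusted p under 0.05 over all tested genes. Each SE was the size of the log2 fold change divided by the root of F. Alternatives were DESeq2 1.42.0, its size factors in edgeR, library totals, no filter, limma 3.58.1 on log2(TPM + 1) and log2(TPM + 0.1), a replicate block, a mean count of at least 50 and leaving out each library. The fit was tested on simulated data.

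The histone genes, the other lists and the tests were chosen with earlier results of these data known. Genes named by rule were all variants, the 10 clustered genes with the highest mean TPM, clustered genes that passed, Slbp, Npat, Cenpa and H2afy2, and, in lists with at least 3 calls, the 3 genes of smallest p. Other genes were named after their values were seen, the remaining clustered members to account for all.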

Additional observations from a re-analysis of the deposited data

How the results depend on the processing

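The count of clustered histone genes that were lower was 1 and became 0 under DESeq2 and at a mean count of at least 50, which leaves Hist1h2ap out, and ran from 0 to 1 over the fits without 1 library. In the fit with the replicate number as a block, 1 variant gene was lower, H2afj at an adjusted p of 0.0375, and Slbp passed at 0.0367. That fit called 1925 of all genes higher and 1904 lower, against 1655 and 1621 in the main fit. Deviations of libraries with the same number correlated at 0.045, 0.035 and 0.055, so the numbers were not taken to pair the samples, although each library correlated best with its own number. Over all genes, 837 were higher and 546 lower by limma on log2(TPM + 1), and 829 and 539 on log2(TPM + 0.1). The difference in the clustered share, DSF minus DMSO, was -0.333 percentage points in TPM. Of 234 alternative values of 18 histone genes, 211 kept direction and call, 3 lost the call, 1 gained it and 19 changed sign, all of them in genes that did not pass. On the TPM scales these were H3f3a at 0.017, H2afz at 0.016 and Hist2h2aa2 at -0.005 and -0.007. Without 1 library, log2 fold changes ran from -0.041 to 0.091 for H2afx, -0.020 to 0.075 for H2afv, -0.041 to 0.031 for H2afz, -0.222 to 0.047 for Hist1h2ad, -0.113 to 0.114 for Hist2h2aa2, -0.042 to 0.144 for Hist1h3c, -0.441 to 0.013 for Hist2h2aa1, -0.017 to 0.236 for Hist1h2bc and -0.322 to 0.217 for Hist1h2ae. Of the 12 other named genes, 137 values were kept, 18 lost the call, 14 of them on the TPM scales, and 1 gained it. Depth limits the clustered genes most, whose counts lay mostly under 60 per library.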
